A study of Rattus norvegicus with 12 samples.

Results

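The genes described here are those that make cholesterol and fatty acids, together with the proteins that sense sterols and switch these genes on. They were taken by name: 38 gene names were listed, and a gene was included when the array carried a probe under a listed name. Of the 38 names, 35 were on the array, and all 35 genes were tested, among 29627 genes in all. The other 3 names (Msmo1, Sc5d and Scd2) were not used as names on this array, which gives the first of these genes as Sc4mol and the second as Sc5dl. The array's Scd corresponds to the current rat gene Scd2, and its Scd1 to the current rat gene Scd. By role, 11 of the genes belong to the mevalonate pathway up to lanosterol, counting Ggps1, an enzyme of a side branch. Another 8 belong to the steps from lanosterol to cholesterol and 6 to sterol sensing and transport. The other 10 belong to fatty acid synthesis, elongation and desaturation.

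Dorsal root ganglia hold the cell bodies of sensory neurons, wrapped by satellite glia, and the proximal part of their axons with Schwann cells. The ganglia of spinal levels L4 to L6 came from male Sprague-Dawley rats from which 1 cm of the left sciatic nerve had been cut out at the thigh 0.5, 3, 6 or 9 h earlier. The labels speak of 24 rats in groups of 6, and 3 arrays were made per time, 12 in all. Which animals each array stands for is not labelled, so the p-values rest on the variation among the arrays of a time, some of it possibly technical. All rats were operated on and no uninjured group is labelled, so each later time was compared with 0.5 h. The 3 comparisons with 0.5 h share the same 3 arrays of that time and are not independent of each other.

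Each array gave 1 intensity per probe in a single colour. A level below is the log2 of that intensity minus the log2 of the array's 75th percentile, so that 0 is the 75th percentile, and levels of different genes cannot be set against each other, since probes differ in brightness. A difference is a difference of mean log2 levels of 3 arrays, with its standard error (SE) from limma, and a gene was called when limma's p, adjusted by Benjamini-Hochberg over all 29627 genes, was under 0.05. The 75th percentile of the arrays lay between 1679 and 1990 intensity units. Between 63.3 and 67.6% of probes were well above background on the 0.5 h arrays, against 82.3 to 85.4% on the later ones. The probes used for the 35 genes were well above background on all 12 arrays, and the scanner software marked none of their spots as an outlier. Over all genes, r was 0.983 to 0.996 within a time and 0.973 to 0.992 between times. All 12 sensory neuron markers searched for were well above background. The arrays of 0.5, 3 and 9 h each lay on a slide of their own, and those of 6 h on 2 others. No slide was shared between times, so slide and time cannot be told apart in any comparison. Scanning took 3 days, with 3 h and 6 h scanned together and 0.5 h and 9 h each alone. Scanning day therefore cannot be separated from time except in 6 h against 3 h. An array's median background was never below 64 at 0.5 h and never above 45 afterwards.

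Cells make cholesterol from acetyl-CoA through mevalonate, farnesyl diphosphate, squalene and lanosterol, and make fatty acids from the same acetyl-CoA through malonyl-CoA. When membrane sterol is low, the escort protein Scap carries the precursors of the transcription factors encoded by Srebf1 and Srebf2 from the endoplasmic reticulum to the Golgi, where they are cut and released to the nucleus. There they switch on the synthesis genes, while Insig proteins hold Scap back when sterol is plentiful. In peripheral nerve, cholesterol and long-chain fatty acids are the bulk lipids of myelin and of growing axon membrane.

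The promoters of 4 of the genes are shown first because these genes stand for the different courses described below: Mvk, Nsdhl and Insig1 were called higher at 9 h than at 0.5 h, and Srebf1 lower. The sequences are the 250 bases before the annotated start, 5′ to 3′ on the gene's own strand, from RefSeq's rat assembly GRCr8. They cover chr12:47819504-47819753 (minus strand) for Mvk, chrX:155817110-155817359 (plus strand) for Nsdhl, chr4:8057770-8058019 (minus strand) for Insig1 and chr10:45529165-45529414 (minus strand) for Srebf1. Capitals mark CCAAT, the box bound by the factor NF-Y, or its reverse complement ATTGG.
Mvk: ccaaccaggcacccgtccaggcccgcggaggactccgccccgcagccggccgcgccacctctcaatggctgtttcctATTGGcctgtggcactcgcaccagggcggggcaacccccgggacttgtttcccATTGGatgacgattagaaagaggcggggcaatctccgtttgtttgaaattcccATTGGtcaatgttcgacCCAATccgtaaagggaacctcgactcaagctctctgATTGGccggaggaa
Nsdhl: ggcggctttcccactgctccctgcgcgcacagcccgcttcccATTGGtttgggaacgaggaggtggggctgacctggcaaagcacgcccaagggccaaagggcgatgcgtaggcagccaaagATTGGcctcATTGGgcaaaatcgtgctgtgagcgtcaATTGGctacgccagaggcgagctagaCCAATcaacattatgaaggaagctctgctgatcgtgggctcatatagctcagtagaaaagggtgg
Insig1: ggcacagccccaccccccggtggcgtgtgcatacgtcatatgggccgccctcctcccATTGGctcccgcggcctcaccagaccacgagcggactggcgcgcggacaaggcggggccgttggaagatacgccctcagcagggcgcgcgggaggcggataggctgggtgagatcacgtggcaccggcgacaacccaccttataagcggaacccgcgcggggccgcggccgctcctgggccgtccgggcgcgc
Srebf1: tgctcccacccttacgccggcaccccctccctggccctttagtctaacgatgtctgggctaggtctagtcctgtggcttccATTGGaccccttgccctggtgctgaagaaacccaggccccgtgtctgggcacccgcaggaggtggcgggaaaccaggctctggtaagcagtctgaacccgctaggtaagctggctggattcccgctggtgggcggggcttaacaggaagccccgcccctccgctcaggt

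Mvk and Nsdhl each held 5 such boxes in this stretch, and Insig1 and Srebf1 held 1 each. Promoters of 300 bases (250 before and 50 after the start) were matched for 28 of the 35 genes. CCAAT on either strand occurred in 21 of the 28 (75%), against 37.5% of all 33469 promoters of this length. The Sp1 box GGGCGG, searched on both strands, also occurred in 21 of the 28 (75%), against 33.1% of all. The sterol regulatory element, searched as TCACNCCAC on both strands, was found in 0 of the 28 and in 1.12% of all promoters, which says only that these letters are not in these windows. CCAAT was held by 5 of the 9 matched genes that were higher at 9 h and by 14 of the 17 that were not called at 9 h. These counts describe letters in the reference sequence, not binding.

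A gene with several probes was read from its brightest. In the probes so used the largest difference of any of the 35 genes from 0.5 h was 0.47 on the log2 scale, which is 1.38-fold. Dimmer second probes of Acaca (-1.01 at 6 h) and Elovl5 (0.48 at 3 h) differed by more. At 3 h, 8 of the 35 genes were called (22.9%), 3 higher and 5 lower, beside 23.3% of all genes (10.6% higher and 12.7% lower). At 6 h, 5 of the 35 were called (14.3%), all 5 lower, beside 13.4% of all genes (4.28% higher and 9.08% lower). At 9 h, 14 of the 35 were called (40.0%), 10 higher and 4 lower, beside 33.7% of all genes (23.4% higher and 10.3% lower). The share of the 35 that was called was thus near the share among all genes at 3 h and 6 h, and the genes differed in direction at 3 h and 9 h. The median difference of the 35 from 0.5 h was -0.03 at 3 h, -0.10 at 6 h and -0.01 at 9 h, beside 0.03, -0.03 and 0.11 over all genes. The arrays of the later time and of 0.5 h did not overlap for 13, 19 and 17 of the 35 genes at 3, 6 and 9 h, beside 41.1, 37.1 and 48.9% of all genes. In a whole ganglion, fewer cells of a type and less RNA per cell cannot be told apart.

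**Figure D1:**
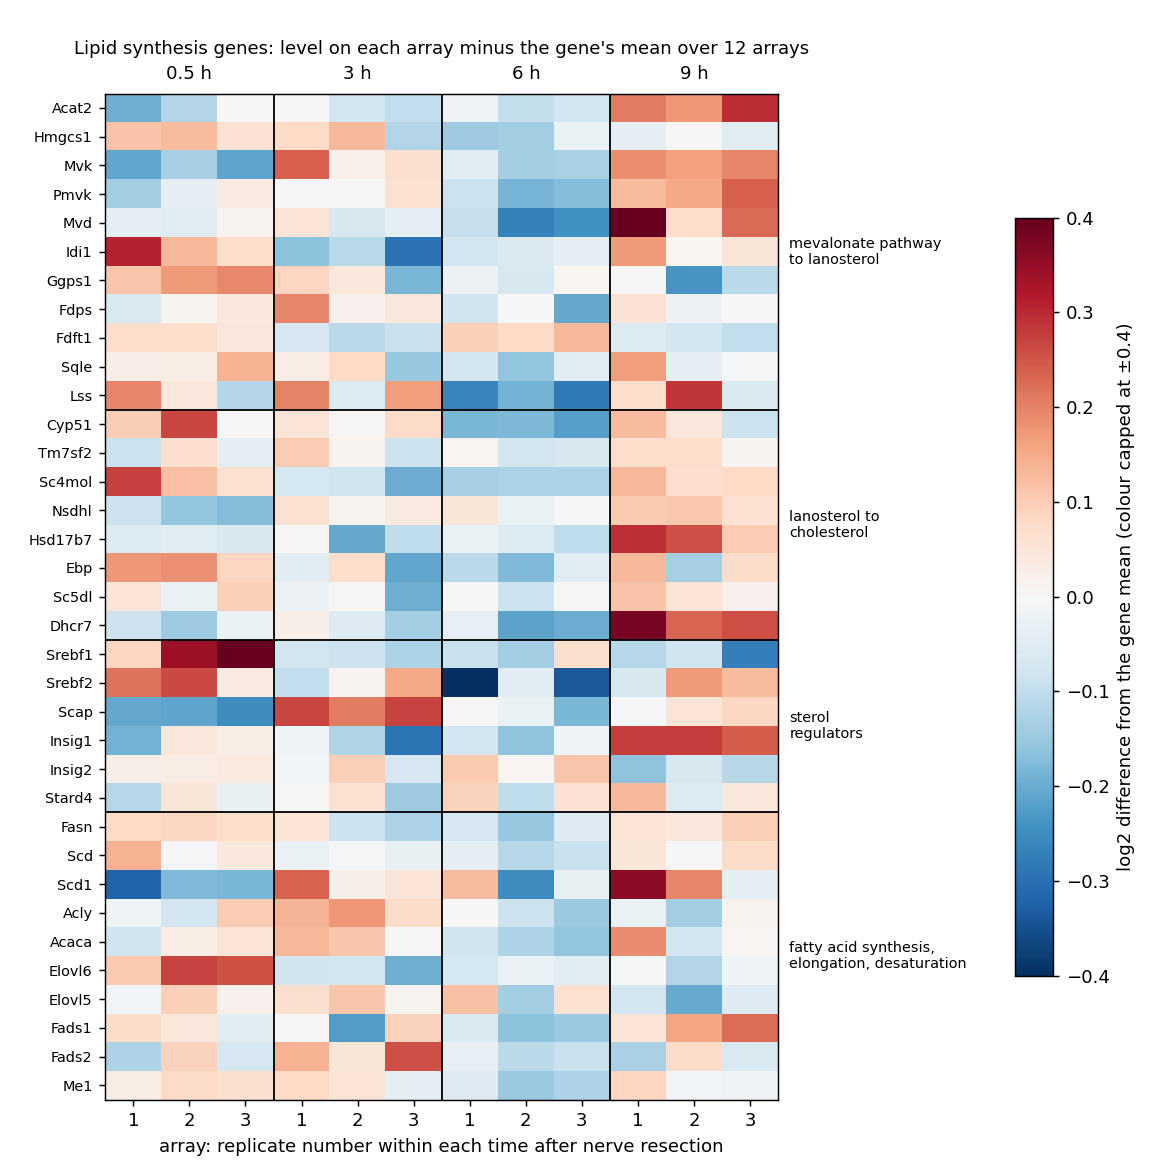
Level of each of the 35 genes (rows, by role) on each of the 12 arrays (columns, by time after resection and replicate number) minus that gene's mean over the 12 arrays, in log2 units, with colour capped at 0.4 either way. Scap is high on the 3 arrays of 3 h, Srebf1 and Elovl6 are high on the 0.5 h arrays, and Acat2, Pmvk, Mvd, Dhcr7 and Insig1 are high on the 9 h arrays.

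How many genes were called in each direction depended on how arrays were scaled to each other. With arrays scaled to their median instead, 3 of the 35 were called higher and 2 lower at 3 h. At 6 h the counts were 2 and 1, and at 9 h 1 and 7. Over all 29627 genes, median scaling called 4697 higher and 2815 lower at 3 h. At 6 h it called 2569 and 1673, and at 9 h 4284 and 5081. Quantile scaling gave 2 higher and 5 lower at 3 h, 0 and 4 at 6 h, and 10 and 3 at 9 h. Over all genes it called 3768 higher and 3270 lower at 3 h, and 5058 and 4404 at 9 h. At 6 h quantile scaling called 3893 of all genes, 1727 of them lower. Cyclic loess gave 2 and 7, 0 and 5, and 10 and 4 at the same times. Over all genes cyclic loess called 4492 higher and 4428 lower, 3601 and 2857, and 6390 and 4545. The median difference of all genes at 9 h against 6 h was 0.11 under the 75th percentile and -0.11 under the median. Of the 41 calls made over the 5 comparisons of times described here, 40 kept their sign under all 3 other scalings and 13 were called under all 3. Those were Elovl6, Idi1, Mvk and Scap at 3 h, Srebf2 at 6 h and Elovl6, Ggps1, Mvk and Srebf1 at 9 h, each against 0.5 h, with Fdft1 and Scap at 6 h against 3 h and Fdft1 and Insig2 at 9 h against 6 h. With another background correction (normexp) in place of the scanner's, 0 of the 35 were called at 3 h and 6 h and 1 at 9 h, namely Srebf1, lower by a log2 difference of -0.63 (limma adjusted p = 0.0133), beside 2.19, 0.00338 and 1.4% of all genes.

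**Figure D2:**
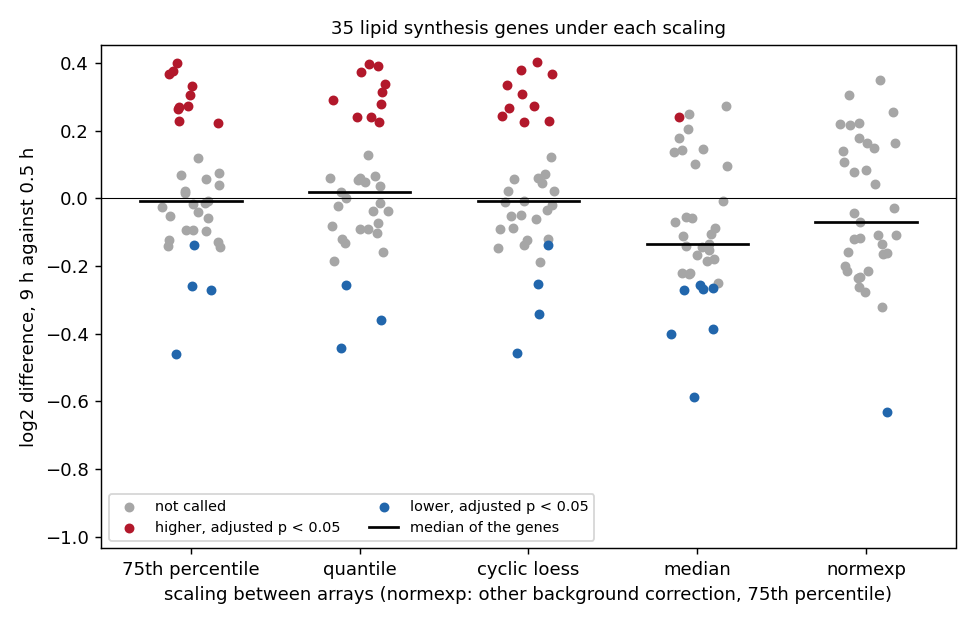
Log2 difference at 9 h against 0.5 h for the 35 genes (points) under 4 scalings between arrays and, at the right, under normexp background correction. Called genes are red (higher) or blue (lower), and black bars are the median of the 35. The calls are 10 higher and 4 lower under the 75th percentile but 1 higher and 7 lower under the median. Over all 29627 genes they are 6947 higher and 3051 lower under the 75th percentile, and 4284 and 5081 under the median.

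In the probes used, the regulators gave both the largest rise and the largest fall from 0.5 h. Dimmer second probes of the fatty acid genes Acaca and Elovl5 differed by more. Scap, the sterol-sensing escort protein, had levels of 3.11, 3.10 and 3.07 at 0.5 h, 3.58, 3.52 and 3.59 at 3 h, 3.32, 3.29 and 3.13 at 6 h, and 3.31, 3.37 and 3.4 at 9 h. The 3 h arrays were the highest, the 0.5 h arrays the lowest, and neither overlapped with any other time. Scap was higher by 0.47 at 3 h (SE 0.061, limma adjusted p = 0.000775) and was 0.26 higher at 9 h (SE 0.061, adjusted p = 0.00948), both against 0.5 h. At 6 h it was 0.15 above 0.5 h, which was not called (adjusted p = 0.128). At 6 h it was below 3 h by a difference of -0.32 (SE 0.061, adjusted p = 0.0102), and these arrays were scanned on the same day. All 3 calls were kept whichever of the 12 arrays was left out, and the one at 9 h was not made under median scaling.

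Srebf1, whose product drives mainly fatty acid synthesis genes, had levels of 2.86, 3.12 and 3.26 at 0.5 h, 2.70, 2.69 and 2.64 at 3 h, 2.68, 2.63 and 2.84 at 6 h, and 2.66, 2.69 and 2.5 at 9 h. The 0.5 h arrays were the highest and overlapped with no later array, but they also spread the most (SD 0.20, against 0.03 to 0.11 at the later times, n = 3 each). The differences from 0.5 h were -0.40 at 3 h (SE 0.10, limma adjusted p = 0.0209), -0.36 at 6 h (SE 0.10, adjusted p = 0.046) and -0.46 at 9 h (SE 0.10, adjusted p = 0.00775). Srebf1 was 1 of 2 genes of the set, with Elovl6, that were called at all 3 later times. The call at 9 h was kept whichever array was left out. The call at 3 h was lost without 0.5 h replicate 2 or 3 or without 3 h replicate 1 or 3 (adjusted p 0.0528 to 0.0648), and that at 6 h without any array except 0.5 h replicate 1 and 9 h replicate 3 (adjusted p 0.0574 to 0.131).

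The array carries 3 probes for Srebf1, and they did not all move the same way. Beside the brightest probe used above, a dim probe was well above background on only 1 of the 3 arrays at 0.5 h, so no difference is given for it. A probe of middle brightness differed by 0.18, -0.08 and 0.19 at 3, 6 and 9 h and was not called (limma adjusted p = 0.256, 0.672 and 0.203). When all probes of a gene were averaged, Srebf1 was called at none of the 3 later times (adjusted p = 0.0867, 0.0576 and 0.056).

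Srebf2, whose product drives mainly cholesterol synthesis genes, had levels of -2.05, -2.01 and -2.23 at 0.5 h, -2.37, -2.26 and -2.12 at 3 h, -2.71, -2.32 and -2.61 at 6 h, and -2.34, -2.10 and -2.14 at 9 h. All 3 arrays of 6 h were below all arrays of 0.5 h, whereas the 3 h and 9 h arrays overlapped with those of 0.5 h. The difference was -0.44 at 6 h (SE 0.12, limma adjusted p = 0.0341). At 3 h it was -0.15 (adjusted p = 0.389) and at 9 h -0.10 (adjusted p = 0.554), which were not called. The call at 6 h was lost without 0.5 h replicate 1 or 2 or 6 h replicate 1 or 3 (adjusted p 0.0812 to 0.111). A second, dimmer probe was not well above background at 0.5 h, so no difference is given for it, and the call was not made with the mean of both probes.

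The probes of Scap and Srebf2 are shown because each carries a call of a regulator. They lie at chr8:114761108-114761167 and chr7:120548399-120548458 of the older rat assembly rn4, in the files' coordinates, and are printed as the files give them.
Scap: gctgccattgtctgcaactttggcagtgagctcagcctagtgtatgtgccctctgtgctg
Srebf2: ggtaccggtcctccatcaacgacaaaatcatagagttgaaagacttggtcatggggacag

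Insig1, which retains Scap in the endoplasmic reticulum and is itself a target of the pathway, had levels of 4.50, 4.73 and 4.72 at 0.5 h, 4.67, 4.57 and 4.40 at 3 h, 4.61, 4.53 and 4.67 at 6 h, and 4.96, 4.96 and 4.93 at 9 h. The 3 arrays of 9 h lay above all 9 others and within 0.02 (SD) of each other. Insig1 was 0.30 higher at 9 h than at 0.5 h (SE 0.087, limma adjusted p = 0.0228) and 0.35 higher than at 6 h (SE 0.087, adjusted p = 0.0146). Its other 3 probes were also higher at 9 h than at 0.5 h, by 0.30, 0.23 and 0.21, of which the first and second were called in a fit over probes (adjusted p = 0.00365 and 0.0296). Against 6 h these probes were higher by 0.19 (called, adjusted p = 0.0324), 0.11 and 0.14, and the mean of all 4 probes was not called there (0.20, adjusted p = 0.0597). At 3 h and 6 h the brightest probe differed from 0.5 h by -0.10 and -0.04, which were not called, whereas the second of the other probes was called lower at 3 h by -0.23 (adjusted p = 0.0378). The call against 0.5 h was lost without 0.5 h replicate 1 or 9 h replicate 1 or 2 (adjusted p 0.0512 to 0.0727), and that against 6 h without 6 h replicate 2 (adjusted p = 0.0561).

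Insig2, the second Scap retention protein, and Stard4, a sterol carrier, moved less. Insig2 ranged from -0.68 to -0.41 over the 12 arrays and was called in 1 comparison, 9 h against 6 h, with a difference of -0.19 (SE 0.059, limma adjusted p = 0.0443). That call was made in fits without 3 h replicate 2, 3 h replicate 3 or 6 h replicate 2 and lost without any other array (adjusted p 0.0571 to 0.14). Stard4 ranged from -1.17 to -0.89, and its differences from 0.5 h were 0.01, 0.05 and 0.07 at 3, 6 and 9 h, none called. The regulators thus did not move as a block: of 6, 1 was higher and 1 lower at 3 h, 0 and 2 at 6 h, and 2 and 1 at 9 h, which is 33.3, 33.3 and 50% called, beside 23.3, 13.4 and 33.7% of all genes.

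**Figure D3:**
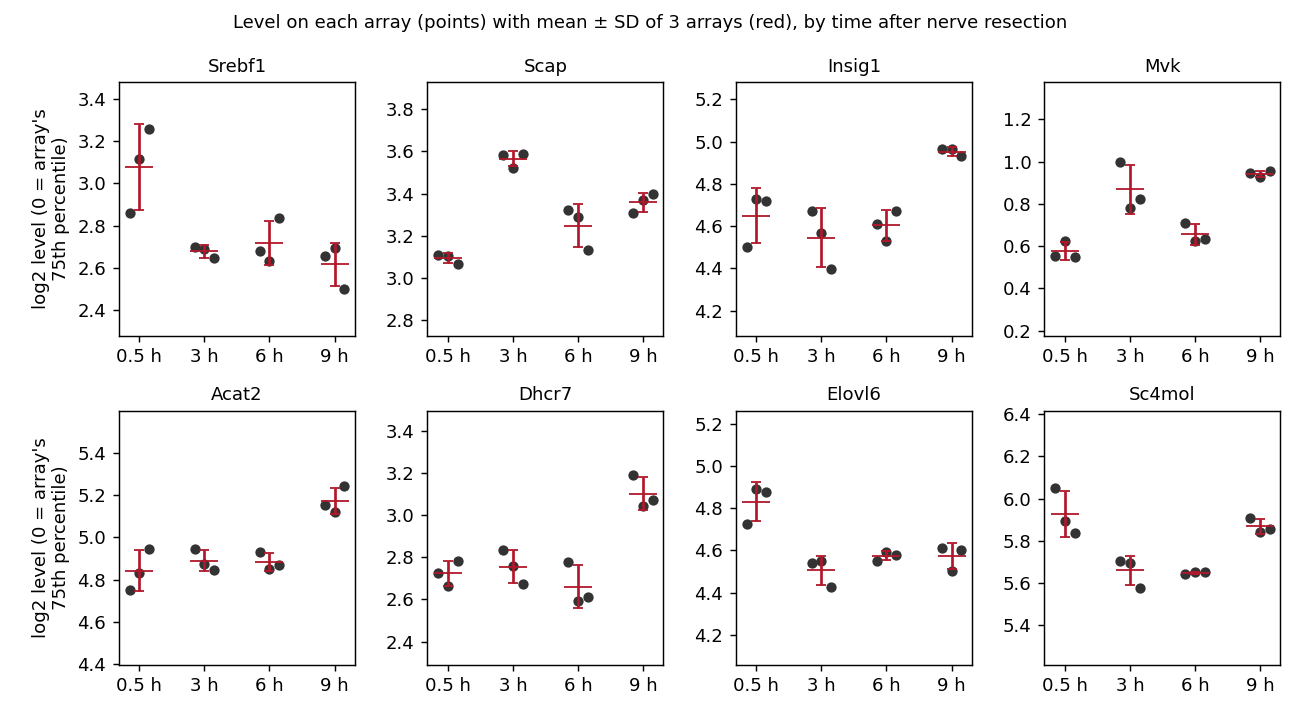
Log2 level on each array (points) with mean and SD of the 3 arrays (red) for 8 genes at 0.5, 3, 6 and 9 h, where 0 is the array's 75th percentile and every panel spans the same range of 1.2 log2 units. Scap peaks at 3 h, Srebf1 and Elovl6 are highest at 0.5 h, Insig1, Acat2 and Dhcr7 are highest at 9 h, Mvk is high at 3 and 9 h, and Sc4mol is low at 3 and 6 h.

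In the mevalonate pathway, 4 of 11 genes were higher and 2 lower at 9 h than at 0.5 h, while 1 was higher and 2 lower at 3 h and 0 were called at 6 h. The shares called were 27.3, 0 and 54.5% at 3, 6 and 9 h, beside 23.3, 13.4 and 33.7% of all genes. The 4 that rose at 9 h were Acat2, the cytosolic thiolase that joins acetyl-CoA units, and Mvk, Pmvk and Mvd, which phosphorylate mevalonate and turn it into isopentenyl diphosphate. The genes that fell at 3 or 9 h were Idi1, Fdft1 and Ggps1. With median scaling Mvk alone of these was still called higher at 9 h, and Ggps1, Fdft1 and Hmgcs1 were called lower.

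Mvk had levels of 0.55, 0.63 and 0.55 at 0.5 h, 1.00, 0.78 and 0.82 at 3 h, 0.71, 0.62 and 0.63 at 6 h, and 0.95, 0.93 and 0.96 at 9 h. It was high at 3 h and 9 h and low at 0.5 h and 6 h, with no overlap between the high and the low times. Mvk was 0.29 higher at 3 h (SE 0.065, limma adjusted p = 0.0114) and 0.37 higher at 9 h (SE 0.065, adjusted p = 0.00265) than at 0.5 h, and 0.29 higher at 9 h than at 6 h (SE 0.065, adjusted p = 0.00955). At 6 h it was 0.08 above 0.5 h (adjusted p = 0.466), and the difference of -0.21 at 6 h against 3 h was not called (adjusted p = 0.0685). The 3 calls were kept whichever array was left out.

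Acat2 had levels of 4.75, 4.83 and 4.94 at 0.5 h, 4.94, 4.87 and 4.85 at 3 h, 4.93, 4.85 and 4.87 at 6 h, and 5.15, 5.12 and 5.24 at 9 h. The 9 h arrays stood above the others, which overlapped among themselves. Acat2 was 0.33 higher at 9 h than at 0.5 h (SE 0.065, limma adjusted p = 0.00423) and 0.29 higher than at 6 h (SE 0.065, adjusted p = 0.00889), with both calls kept whichever array was left out. Its second probe was not well above background at 0.5 h, so no difference is given for it. With the mean of both probes the call against 0.5 h was still made and that against 6 h was not (adjusted p = 0.0289 and 0.0535).

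Pmvk had levels of 2.98, 3.08 and 3.15 at 0.5 h, 3.12, 3.12 and 3.18 at 3 h, 3.03, 2.93 and 2.94 at 6 h, and 3.24, 3.27 and 3.36 at 9 h. It was highest at 9 h and low at 6 h. The difference at 9 h was 0.22 against 0.5 h (SE 0.063, limma adjusted p = 0.0219) and 0.32 against 6 h (SE 0.063, adjusted p = 0.00379). The call against 0.5 h was lost without 0.5 h replicate 1 or 2 or 9 h replicate 3 (adjusted p 0.0504 to 0.0762).

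Mvd had levels of 2.98, 2.97 and 3.03 at 0.5 h, 3.07, 2.95 and 2.98 at 3 h, 2.92, 2.75 and 2.77 at 6 h, and 3.45, 3.09 and 3.24 at 9 h. Its 9 h arrays were all above the others but spread widely, with an SD of 0.18. Mvd was 0.27 higher at 9 h than at 0.5 h (SE 0.091, limma adjusted p = 0.046) and 0.45 higher than at 6 h (SE 0.091, adjusted p = 0.0053). In the probes used, the latter was the largest step of the 35 genes between those times, but a dimmer probe of Acaca rose by more. The call against 0.5 h was lost without any array except 6 h replicate 1 and 9 h replicate 2 (adjusted p 0.0562 to 0.128), and the call against 6 h was kept whichever array was left out.

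Idi1, the isomerase that makes dimethylallyl diphosphate, had levels of 4.74, 4.57 and 4.50 at 0.5 h, 4.27, 4.33 and 4.14 at 3 h, 4.36, 4.37 and 4.39 at 6 h, and 4.60, 4.44 and 4.48 at 9 h. All 3 h and 6 h arrays were below all 0.5 h arrays, and the 9 h arrays overlapped with 0.5 h. It fell by a difference of -0.36 at 3 h (SE 0.079, limma adjusted p = 0.0103), a call kept whichever array was left out. The differences of -0.23 at 6 h (adjusted p = 0.0872) and -0.09 at 9 h (adjusted p = 0.382) were not called.

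Fdft1, squalene synthase, had levels of 1.88, 1.88 and 1.85 at 0.5 h, 1.74, 1.70 and 1.72 at 3 h, 1.90, 1.89 and 1.94 at 6 h, and 1.75, 1.73 and 1.71 at 9 h. It alternated between a pair of narrow bands, high at 0.5 and 6 h and low at 3 and 9 h, with an SD of 0.01 to 0.03 within a time. The differences were -0.15 at 3 h (SE 0.045, limma adjusted p = 0.0398) and -0.14 at 9 h (SE 0.045, adjusted p = 0.0404) against 0.5 h, 0.19 at 6 h against 3 h (SE 0.045, adjusted p = 0.0274), and -0.18 at 9 h against 6 h (SE 0.045, adjusted p = 0.0169). These calls were close to the threshold. That at 3 h was lost without any array except 9 h replicate 1 (adjusted p 0.0519 to 0.0983) and that at 9 h against 0.5 h without any except 3 h replicate 2 or 3 (0.0528 to 0.111). The call at 6 h against 3 h was lost without any array of either time (0.0585 to 0.111), and that at 9 h against 6 h without 6 h replicate 3 or 9 h replicate 3 (0.0587 and 0.0696).

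Ggps1, which makes geranylgeranyl diphosphate for protein prenylation, had levels of -1.90, -1.84 and -1.82 at 0.5 h, -1.93, -1.96 and -2.19 at 3 h, -2.04, -2.08 and -2.0 at 6 h, and -2.01, -2.25 and -2.12 at 9 h. Every later array was below every 0.5 h array. The difference was called at 9 h only, at -0.27 (SE 0.084, limma adjusted p = 0.0311), beside -0.17 at 3 h (adjusted p = 0.165) and -0.18 at 6 h (adjusted p = 0.174). It was lost without 0.5 h replicate 2 or 3 or 9 h replicate 2 or 3 (adjusted p 0.0688 to 0.106), and with normexp the difference was 0.08.

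Hmgcs1, which makes the HMG-CoA that enters the pathway, had levels of 6.16, 6.17 and 6.10 at 0.5 h, 6.12, 6.17 and 5.93 at 3 h, 5.90, 5.91 and 6.02 at 6 h, and 6.00, 6.04 and 6.00 at 9 h. The 6 h and 9 h arrays lay below the 0.5 h arrays without overlap, by -0.20 (limma adjusted p = 0.0901) and -0.13 (adjusted p = 0.189), and neither was called. Fdps, Sqle and Lss, the synthases and epoxidase that lead through farnesyl diphosphate and squalene to lanosterol, differed from 0.5 h by -0.29 to 0.09, and none was called in the probes used. A dimmer probe of Fdps was called higher at 9 h by 0.20 (adjusted p = 0.0423) in the fit over probes. Lss was called in 1 comparison, 9 h against 6 h, at 0.35 (SE 0.11, adjusted p = 0.0449), a call lost without any array except 0.5 h replicate 1 or 3, 3 h replicate 2 or 9 h replicate 3 (adjusted p 0.0538 to 0.142).

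Of the 8 genes between lanosterol and cholesterol, 1 was higher and 1 lower at 3 h, 0 and 2 at 6 h, and 3 and 0 at 9 h (25, 25 and 37.5% called, beside 23.3, 13.4 and 33.7% of all genes). The 3 that rose at 9 h were Nsdhl and Hsd17b7, which act in the removal of methyl groups from the sterol ring, and Dhcr7, the reductase of the last step. With median scaling all 3 remained higher in value at 9 h but none was called.

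Dhcr7 had levels of 2.73, 2.66 and 2.78 at 0.5 h, 2.83, 2.76 and 2.67 at 3 h, 2.78, 2.59 and 2.61 at 6 h, and 3.19, 3.04 and 3.07 at 9 h. The 9 h arrays were above the other 9, which overlapped. Dhcr7 was 0.38 higher at 9 h than at 0.5 h (SE 0.073, limma adjusted p = 0.00408) and 0.44 higher than at 6 h (SE 0.073, adjusted p = 0.0016), and both calls were kept whichever array was left out.

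Nsdhl had levels of 1.94, 1.87 and 1.85 at 0.5 h, 2.08, 2.03 and 2.06 at 3 h, 2.07, 1.99 and 2.02 at 6 h, and 2.13, 2.13 and 2.08 at 9 h. Every later array was above every 0.5 h array. The differences from 0.5 h were 0.17 at 3 h (SE 0.05, limma adjusted p = 0.0325), 0.14 at 6 h (not called, adjusted p = 0.0891) and 0.23 at 9 h (SE 0.05, adjusted p = 0.00743). The call at 9 h was kept whichever array was left out. That at 3 h was lost without 0.5 h replicate 2 or 3, 6 h replicate 3 or any 3 h array (adjusted p 0.0505 to 0.102).

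Hsd17b7 had levels of -1.49, -1.48 and -1.49 at 0.5 h, -1.43, -1.63 and -1.53 at 3 h, -1.46, -1.49 and -1.53 at 6 h, and -1.14, -1.17 and -1.33 at 9 h. Only the 9 h arrays stood apart, above all others. It was 0.27 higher at 9 h than at 0.5 h (SE 0.07, limma adjusted p = 0.0146), kept whichever array was left out. Against 6 h it was 0.28 higher (SE 0.07, adjusted p = 0.0155), lost without 6 h replicate 3 or 9 h replicate 2 (adjusted p 0.0532 and 0.0613).

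Sc4mol, the methyl oxidase now named Msmo1, had levels of 6.05, 5.90 and 5.84 at 0.5 h, 5.71, 5.70 and 5.58 at 3 h, 5.64, 5.65 and 5.65 at 6 h, and 5.91, 5.84 and 5.86 at 9 h. It was low at 3 and 6 h, and the 9 h arrays overlapped with those of 0.5 h. The differences from 0.5 h were -0.27 at 3 h (SE 0.066, limma adjusted p = 0.0175) and -0.28 at 6 h (SE 0.066, adjusted p = 0.0228), beside -0.06 at 9 h (adjusted p = 0.524). At 9 h it was 0.22 above 6 h (SE 0.066, adjusted p = 0.0334). The calls were lost, in this order, without 3 h replicate 3 (adjusted p = 0.0538), without 0.5 h replicate 1 or any 6 h array (0.0558 to 0.0657), and without any 6 h or 9 h array (0.0617 to 0.0871).

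Cyp51, the demethylase that acts on lanosterol, had levels of 4.49, 4.66 and 4.39 at 0.5 h, 4.44, 4.40 and 4.47 at 3 h, 4.21, 4.21 and 4.17 at 6 h, and 4.52, 4.44 and 4.31 at 9 h. The 6 h arrays were below all others. The difference at 6 h was -0.32 (SE 0.078, limma adjusted p = 0.0277), which was lost without any 6 h array or without 0.5 h replicate 1 or 2 (adjusted p 0.0541 to 0.085). Ebp, Sc5dl and Tm7sf2, an isomerase, a desaturase and a reductase of the same stretch, were called in no comparison, with differences from 0.5 h of -0.26 to 0.07.

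Among the 10 fatty acid genes, 0 were higher and 1 lower at 3 h, 0 and 1 at 6 h, and 1 and 1 at 9 h (10, 10 and 20% called, beside 23.3, 13.4 and 33.7% of all genes). The fall at each time was that of Elovl6, which elongates saturated and monounsaturated fatty acids, and the rise was that of Scd1. The core enzymes Acly, Acaca and Fasn, which supply cytosolic acetyl-CoA, carboxylate it and assemble palmitate, were not called at any time in the probes used.

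Elovl6 had levels of 4.73, 4.89 and 4.88 at 0.5 h, 4.54, 4.55 and 4.43 at 3 h, 4.55, 4.59 and 4.58 at 6 h, and 4.61, 4.50 and 4.60 at 9 h. Every later array was below every 0.5 h array, and the later times lay close together. The differences from 0.5 h were -0.33 at 3 h (SE 0.065, limma adjusted p = 0.00654), -0.26 at 6 h (SE 0.065, adjusted p = 0.0294) and -0.26 at 9 h (SE 0.065, adjusted p = 0.013). The calls at 3 and 9 h were kept whichever array was left out, and that at 6 h was lost without any 6 h array or without 0.5 h replicate 2 or 3 (adjusted p 0.0672 to 0.0936). A second, dimmer probe, well above background on all 12 arrays, differed by 0.10 at 3 h and -0.12 at 6 h, which were not called (adjusted p = 0.44 and 0.372), and by -0.39 at 9 h, which was (adjusted p = 0.00669). With the mean of both probes only the call at 9 h was made (-0.33, adjusted p = 0.00357), beside -0.11 at 3 h (adjusted p = 0.223) and -0.19 at 6 h (adjusted p = 0.0741).

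Scd1, which introduces a double bond into saturated fatty acids, had levels of 2.00, 2.14 and 2.14 at 0.5 h, 2.55, 2.34 and 2.37 at 3 h, 2.44, 2.07 and 2.29 at 6 h, and 2.68, 2.52 and 2.28 at 9 h. The 3 h and 9 h arrays were above those of 0.5 h, and the 9 h arrays had an SD of 0.20. The difference was 0.40 at 9 h (SE 0.12, limma adjusted p = 0.0294), beside 0.33 at 3 h (adjusted p = 0.0769) and 0.18 at 6 h (adjusted p = 0.371). It was lost without any 0.5 h array and without 9 h replicate 1 or 2 (adjusted p 0.054 to 0.0887).

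Scd, the array's name for the sister desaturase Scd2, had levels of 7.07, 6.93 and 6.97 at 0.5 h, 6.91, 6.93 and 6.90 at 3 h, 6.89, 6.82 and 6.84 at 6 h, and 6.98, 6.93 and 7.01 at 9 h. Its differences of -0.08, -0.14 and -0.02 from 0.5 h at 3, 6 and 9 h were not called. Another probe under the same name was called lower at 3 h and 6 h in the fit over probes, by -0.21 (limma adjusted p = 0.0441) and -0.41 (adjusted p = 0.00582). One more probe of Scd differed by 0.20, -0.06 and -0.19 at 3, 6 and 9 h and was not called (adjusted p = 0.132, 0.73 and 0.126), so at 3 h it had the opposite sign.

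Fasn had levels of 5.14, 5.14 and 5.13 at 0.5 h, 5.11, 4.97 and 4.93 at 3 h, 4.99, 4.90 and 5.0 at 6 h, and 5.11, 5.10 and 5.15 at 9 h. The 3 h and 6 h arrays were below those of 0.5 h, by -0.13 and -0.17 (limma adjusted p = 0.15 and 0.093, not called), and the 9 h arrays overlapped with them. Acly, Acaca, Me1, Elovl5, Fads1 and Fads2 differed from 0.5 h by -0.17 to 0.18, and none was called. Fads1, a desaturase of polyunsaturated fatty acids, was called at 9 h against 6 h only, at 0.27 (SE 0.085, adjusted p = 0.0447), a call lost without any array except 3 h replicate 2 or 3 or 9 h replicate 1 (adjusted p 0.0524 to 0.138). In a fit over probes, the dimmer second probes of Elovl5 and Acaca gave larger differences. That of Elovl5 was 0.48 higher at 3 h (adjusted p = 0.00561), where the brighter probe gave 0.03. That of Acaca differed from 0.5 h by -0.20 at 3 h, -1.01 at 6 h (adjusted p = 0.00192) and 0.68 at 9 h (adjusted p = 0.00242), where the brighter probe gave 0.08, -0.12 and 0.04.

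**Figure D4:**
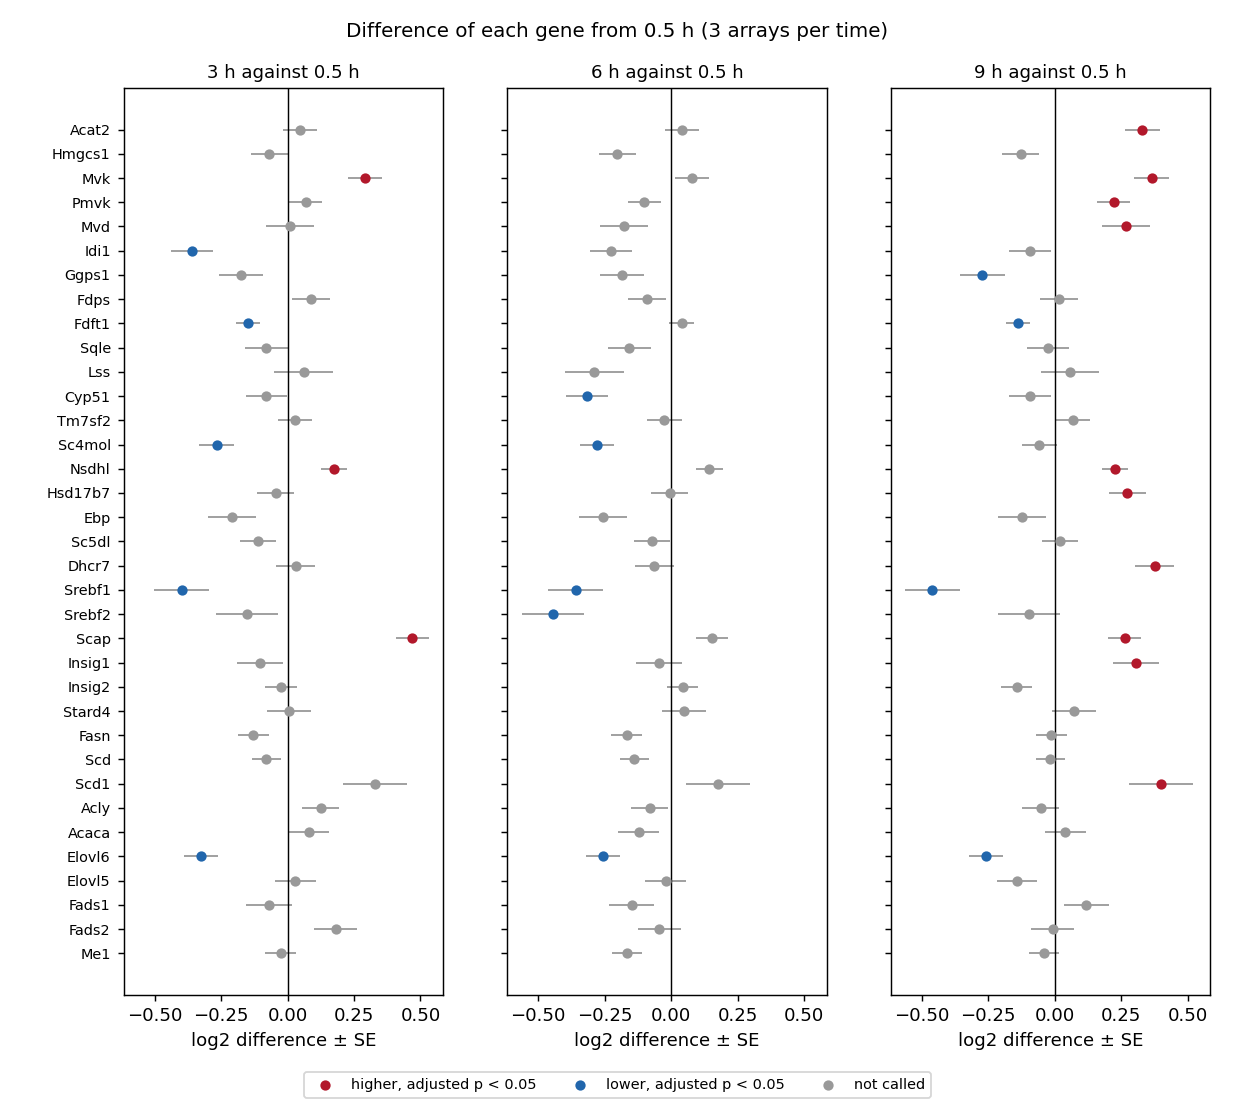
Log2 difference from 0.5 h with its SE for each of the 35 genes at 3, 6 and 9 h (panels, 3 arrays per time), red where called higher, blue where called lower, grey where not called. The calls are 3 higher and 5 lower at 3 h, 0 and 5 at 6 h, and 10 and 4 at 9 h.

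The neighbouring times place these differences. At 6 h against 3 h, 2 of the 35 genes were called (5.71%), Fdft1 higher and Scap lower, beside 10.8% of all genes (5.88% higher and 4.95% lower), and arrays did not overlap for 15 of the 35, beside 35.6% of all genes. At 9 h against 6 h, 12 of the 35 were called (34.3%), 10 higher and 2 lower, beside 25.4% of all genes (19.5% higher and 5.87% lower), and arrays did not overlap for 22 of the 35, beside 44.5% of all genes. Those higher were Acat2, Mvk, Pmvk, Mvd, Lss, Sc4mol, Hsd17b7, Dhcr7, Insig1 and Fads1. Of these 10, 8 are from the mevalonate and lanosterol groups, as are 19 of the 35 genes, counting the side branch enzyme Ggps1. In value, 29 of the 35 were higher at 9 h than at 6 h, with a median of 0.13, beside 19996 of 29627 genes with a median of 0.11. Under quantile scaling the split was 7 higher and 2 lower, beside 3251 and 3632 of the 29627 genes. Under cyclic loess it was 6 and 2, beside 3705 and 2974 of all genes. Under median scaling it was 0 and 5, beside 3524 and 6564 of all genes. There the median of the 35 was -0.09, beside -0.11 for all genes. The 6 h arrays lay on 2 slides. With only those of the second slide, 2 arrays, 8 were called. The first slide holds 1 array of 6 h, too few for a comparison of its own.

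Over the 4 times together, 16 of the 35 genes were called for any difference (45.7%), beside 44.2% of all genes. Over the 5 comparisons, 21 genes were called at least once (60%, beside 51.2% of all genes) and 14 in none. Of the 41 calls, 18 were kept whichever of the 12 arrays was left out. Among the 14 genes with more than 1 probe there were 14 comparisons in which the used probe was called and another probe was well above background on all arrays of both times. Of these, 11 had the same sign, 4 were themselves called with that sign and 0 with the other sign.

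Other genes of the same pathways, taken from lists that hold none of the 35, gave the surroundings. Of 13 further sterol and isoprenoid genes tested, 3 were higher and 0 lower at 3 h, 1 and 0 at 6 h, and 1 and 1 at 9 h (23.1, 7.69 and 15.4% called, beside 23.3, 13.4 and 33.7% of all genes). Fntb, the beta subunit of protein farnesyltransferase, was 0.40 higher at 3 h (SE 0.081, limma adjusted p = 0.00737) and 0.43 higher at 9 h (SE 0.081, adjusted p = 0.00359) than at 0.5 h. Acat1, the mitochondrial thiolase, and Tmem97, a sterol-binding membrane protein, were higher at 3 h by 0.32 (adjusted p = 0.0202) and 0.29 (adjusted p = 0.0316), and Dhdds, a subunit of the enzyme that makes dolichol, was higher at 6 h by 0.25 (adjusted p = 0.0455). Hsd17b12, a reductase of fatty acid elongation, was lower at 9 h by -0.41 (adjusted p = 0.00697). Fnta, the alpha subunit of the prenyltransferases, was lower at 6 h than at 3 h by -0.27 (adjusted p = 0.0225). With arrays scaled to their median, 6 of the 13 were higher and 0 lower at 3 h, 2 and 0 at 6 h, and 1 and 1 at 9 h. Over all 29627 genes that scaling called 4697 higher and 2815 lower at 3 h, 2569 and 1673 at 6 h, and 4284 and 5081 at 9 h.

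Of 15 genes of cholesterol efflux, turnover and the sterol-activated nuclear receptors (LXR), 1 was higher and 1 lower at 3 h, 0 were called at 6 h, and 6 were higher and 0 lower at 9 h. That is 13.3, 0 and 40.0% called, beside 23.3, 13.4 and 33.7% of all genes, of which 23.4% were higher at 9 h. Nr1h2 and Nr1h3, which encode LXR beta and alpha, were higher at 9 h by 0.37 (SE 0.078, limma adjusted p = 0.00625) and 0.31 (SE 0.085, adjusted p = 0.0192), and Nr1h3 was lower at 3 h by -0.28 (adjusted p = 0.0383). Cyp27a1, which hydroxylates the cholesterol side chain, was higher at 9 h by 0.31 (SE 0.10, adjusted p = 0.0365). Abcg4, a sterol transporter, is counted among the 6, but no 0.5 h array had it well above background. It was kept through the later times alone, so no fold is given and nothing is concluded from its call. With arrays scaled to their median, 3 of the 15 were higher and 0 lower at 3 h, and 2 and 0 at 6 h. At 9 h only Abcg4 was called, with the limit just given. Over all 29627 genes that scaling called 4697 higher and 2815 lower at 3 h, 2569 and 1673 at 6 h, and 4284 and 5081 at 9 h. Under quantile scaling 5 of the 15 were higher and 0 lower at 9 h, beside 5058 and 4404 of all genes. Under cyclic loess 6 and 0 of the 15 were called at 9 h, beside 6390 and 4545 of all genes.

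Of 17 further fatty acid and glycerolipid genes, 2 were higher and 1 lower at 3 h, 0 and 3 at 6 h, and 4 and 3 at 9 h (17.6, 17.6 and 41.2% called, beside 23.3, 13.4 and 33.7% of all genes). Mlxipl, the carbohydrate-responsive activator of fatty acid synthesis genes, was 1.17 higher at 9 h than at 0.5 h (SE 0.16, limma adjusted p = 0.000716) and 1.61 higher than at 6 h (SE 0.16, adjusted p = 7.28e-05). Its mean level was -2.10 ± 0.04 at 9 h, against -3.27 ± 0.30 at 0.5 h (SD, n = 3 each). Acacb, the mitochondrial acetyl-CoA carboxylase, is among the 4 counted higher at 9 h, but no 0.5 h array had it well above background. Acacb was kept through the 6 h and 9 h arrays alone, so no fold is given and nothing is concluded from that call. It was 0.79 higher at 9 h than at 6 h (SE 0.15, adjusted p = 0.00362). The elongases Elovl2 and Elovl7 were lower at 9 h by -0.56 (SE 0.091, adjusted p = 0.00161) and -0.33 (SE 0.059, adjusted p = 0.00273). Slc25a1, the mitochondrial citrate carrier, and Acss2, which makes cytosolic acetyl-CoA from acetate, were each 0.45 higher at 9 h than at 6 h (adjusted p = 0.00864 and 0.026). Dgat1, the last enzyme of triglyceride synthesis, was higher at 3 h by 0.25 (adjusted p = 0.0123) and at 9 h by 0.30 (adjusted p = 0.0036). With arrays scaled to their median, 2 of the 17 were higher and 0 lower at 3 h, 1 and 0 at 6 h, and 2 and 3 at 9 h. Over all 29627 genes that scaling called 4697 higher and 2815 lower at 3 h, 2569 and 1673 at 6 h, and 4284 and 5081 at 9 h. At 9 h Mlxipl was still higher and Elovl2 and Elovl7 were still lower. The other gene higher there was Acacb, with the limit given above. Under normexp background correction, the call among these 3 lists was Elovl2 lower at 9 h, alone over the 5 comparisons.

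Fat cells also express fatty acid synthesis genes, and their markers varied between arrays. Of 10 adipocyte markers listed, 7 were tested, and 1 was called higher at 3 h, 0 at 6 h and 3 at 9 h. That is 14.3, 0 and 42.9%, beside 10.6, 4.28 and 23.4% of all genes called higher. All 7 were higher in value at each later time than at 0.5 h, with medians of 1.04, 0.87 and 1.32. On the 0.5 h arrays 5 or 6 of the 7 were well above background, on the later arrays all 7. Their mean level ranged from -3.03 to -2.72 on the 0.5 h arrays, -3.41 to -1.14 at 3 h, -2.53 to -1.65 at 6 h and -2.42 to -0.86 at 9 h, and their summed signal, as log2, from 0.97 to 1.33, 0.76 to 3.01, 1.48 to 2.49 and 1.43 to 3.00. Markers Plin1, Lep and Plin4 were not among the genes tested. The spread within 3 h and within 9 h was wider than the differences between the times' means. Among the lipid synthesis genes Scd1 had its lowest 9 h level (2.28) on replicate 3, the 9 h array with the lowest adipocyte level. At 6 h it went the other way, with its highest level (2.44) on replicate 1, where the adipocyte level was lowest (-2.53). At 3 h its level on replicate 3 (2.37), where the adipocyte level was lowest of all, lay between those of the other 3 h arrays. Skeletal muscle markers had mean levels of 1.87 to 3.23 on the 0.5 h arrays, 2.22 to 4.54 at 3 h, 2.34 to 5.39 at 6 h and 2.46 to 4.12 at 9 h, and 0 of 13 were called. Schwann cell myelin markers, of which 9 were tested, had mean levels between 4.31 and 4.76, and 0 were called higher and 1 lower at each later time. That is 11.1% at each, beside 23.3, 13.4 and 33.7% of all genes at 3, 6 and 9 h. Satellite glia markers (8 tested) lay between 0.52 and 0.82, with 2 higher and 0 lower at 3 h, 0 and 1 at 6 h, 1 and 0 at 9 h, and 0 and 2 at 6 h against 3 h. In this order 25, 12.5, 12.5 and 25% were called, beside 23.3, 13.4, 33.7 and 10.8% of all genes. Of the 12 sensory neuron markers, 0 were higher and 1 lower at 3 h, 0 and 2 at 6 h, 0 were called at 9 h, and 3 were higher at 9 h than at 6 h, where their median difference was 0.18. In this order 8.33, 16.7, 0 and 25% were called, beside 23.3, 13.4, 33.7 and 25.4% of all genes. The part of these cell types in the differences above was not tested.

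**Figure D5:**
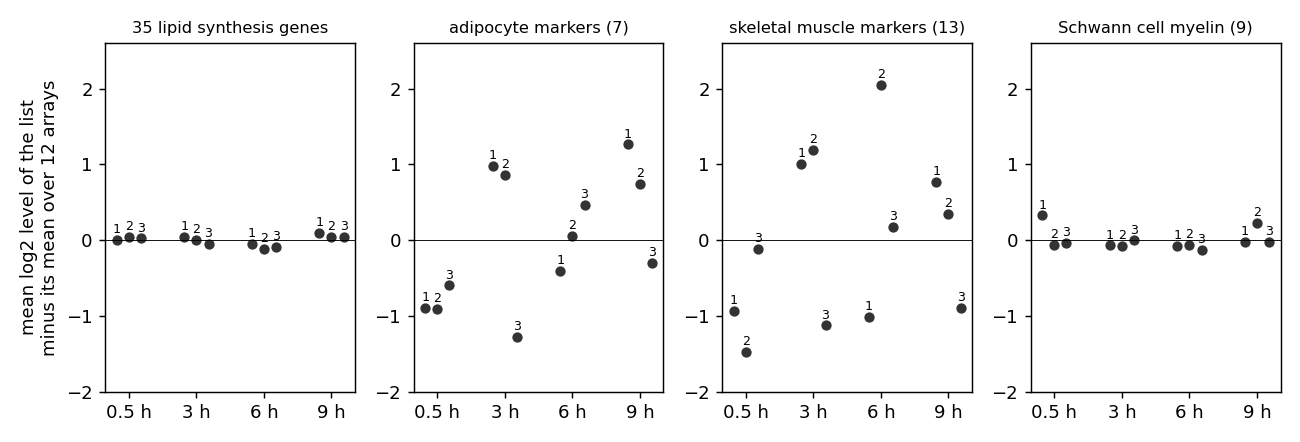
Mean log2 level of the 35 lipid synthesis genes and of 3 marker lists on each array minus that list's mean over the 12 arrays, by time after resection, with the replicate number above each point. The adipocyte and muscle lists spread over more than 2 log2 units within the 3 h arrays, while the lipid synthesis genes lie close to 0 on every array.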

How the data were processed

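Total RNA of rat dorsal root ganglia was hybridised to 12 single-colour arrays, 3 at each of 4 times after nerve resection. RNA was amplified and labelled with Cy3, per the labels' protocols. The deposited values are intensity per spot, background-subtracted by the scanner software (Agilent Feature Extraction 10.5.1.1, per the file headers). No scaling between arrays is given in the sources used here.

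Control spots (1639 of 45018 per array) and spots marked as outliers (76 to 218 per array) were left out, and no spot was saturated. Intensities were taken as log2 and the array's 75th percentile was subtracted. A probe was kept where every array of some time had it well above background (34842 of 41012 probes), and a gene with several kept probes was read from the brightest. All 12 arrays were fitted by time with limma 3.58.1 (lmFit and eBayes, R 4.3.3), with Benjamini-Hochberg adjustment per comparison. The fit was tested on simulated data. The number of arrays limits the precision.

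The members, lists and tests were chosen with earlier results of these data known. By rule, every array's level is given for each gene called in a comparison with 0.5 h or in 6 h against 3 h and for Srebf1, Srebf2, Insig1, Hmgcs1, Fasn and Scd, and of other lists up to 4 called genes per comparison could be named. Alternatives changed the background correction, scaling, probe filter, probe rule, variance model, blocks and arrays. Same-numbered arrays of different times deviated together weakly (18 correlations, -0.13 to 0.22, 3 over 0.1), so numbers were not taken as pairs.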

Additional observations from a re-analysis of the deposited data

How the results depend on the processing

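The counts of the 35 genes called are given here for 3, 6 and 9 h against 0.5 h, then 6 h against 3 h, 9 h against 6 h and any difference over the 4 times, where they were 8, 5, 14, 2, 12 and 16. Normexp background correction gave 0, 0, 1, 0, 0 and 1, with 2.19% of all genes called at 3 h, so most calls among all genes were lost too. Median scaling gave 5, 3, 8, 2, 5 and 11, beside 25.4, 14.3, 31.6, 8.76, 34.1 and 50.8% of all genes. Fitting only the times compared gave 2, 0, 8, 0 and 9 for the first 5. The common detection floor gave 8 at 6 h, and the variance model with trend and robust fitting gave 8 at 6 h and 6 at 6 h against 3 h. Slide as a random block gave 14, 15, 17, 12, 18 and 30, with an estimated correlation of -0.26 within slides. No slide was shared between times, so this fit cannot separate slide from time, and nothing is concluded from its higher counts. With the replicate number as a block (replicate block) the counts were 6, 3, 12, 1, 10 and 15, and 6 of 12 arrays correlated best with an array of their own number. With only the second slide of 6 h, chosen after seeing the data, the counts were 7, 0, 13, 1, 8 and 14, and with only the first slide, which leaves 1 array at 6 h whose spread is taken from the other times, 6, 0, 11, 0, 0 and 8. Leaving out 1 array gave 4 to 8, 0 to 5, 9 to 13, 1 to 2, 6 to 12 and 12 to 18. The lowest counts came without 3 h replicate 3 at 3 h (4), without 6 h replicate 1 or 3 at 6 h (0), without 0.5 h replicate 1 or 2 at 9 h (9), without any array of 3 h or 6 h in their comparison (1), without 6 h replicate 3 at 9 h against 6 h (6) and without 9 h replicate 2 over the 4 times (12). Quantile and cyclic loess scaling, no filter, the filter on all 12 arrays and the mean of probes kept every count within 1.5 times of the count first given. Of the 41 calls, 3 reversed in 1 setting each: Ggps1 at 9 h under normexp (0.0775), Srebf2 at 6 h with the mean of probes (0.0584, where 1 of the 2 was not well above background at 0.5 h) and Sc4mol at 9 h against 6 h under median scaling (-0.00376). The cause of these changes was not tested.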
